A study of Mus musculus with 4 samples.

Results

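The MHC class II pathway was followed here through 8 of the 24422 named genes: Cd74, H2-Aa, H2-Ab1, H2-Eb1, H2-DMa, H2-DMb1, H2-DMb2 and Ciita. They were taken as the class II chains, the invariant chain, the exchange factor chains and the class II transactivator, with the RefSeq transcript of the highest mean raw count standing for each gene. The cells were RAW 264.7, a mouse macrophage-like line, grown with 5.5 mmol/L glucose and used between passages 3 and 6. The 2 groups were cells stably expressing the long noncoding RNA Dnm3os (2 libraries) and cells stably carrying the empty vector pcDNA 3.1(+), called EV below (2 libraries), and poly(A) RNA was sequenced. The labels do not say whether a group was 1 clone or a pool, nor whether its libraries came from separate cultures, so the p-values measure the spread between these libraries, which may be technical.

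Class II molecules show peptides from engulfed material to CD4 T cells. Their alpha and beta chains (I-A from H2-Aa and H2-Ab1, I-E with the beta chain H2-Eb1) fold on the invariant chain Cd74, which blocks the groove and steers them to endosomes. There proteases trim Cd74 to a short remnant, and H2-DM, a dimer of H2-DMa with a DMb chain, swaps that remnant for peptide. Ciita, the class II transactivator, binds no DNA itself but docks on factors sitting at the X and Y boxes of these promoters, and in macrophages interferon gamma is its classical inducer. RAW 264.7 cells derive from BALB/c mice, whose class II alleles differ from those of the C57BL/6 reference, so reads of the polymorphic chains may align less fully in all 4 libraries alike.

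Summed counts over 1 transcript per gene lay between 29416272 and 39769640 per library. Dnm3os had 208 and 260 counts in the Dnm3os libraries, against 0 and 0 in the EV libraries, at least 184-fold higher when the EV group is set at its detection floor of 3 counts. Of the 9 macrophage markers listed, 8 could be tested, and their summed level was 10493 to 10976.5 CPM (counts per 1000000 counts of the library) in Dnm3os cells and 9577 to 9798 CPM in EV cells. The integrin chain Itgam (log2 fold change 1.01 ± 0.04, SE) and the immunoglobulin receptor Fcgr1 (0.75 ± 0.05) were among the 4 markers that rose, and Adgre1 (-0.30 ± 0.04) and Cd68 (-0.11 ± 0.03) fell. Cd68 was not called without EV library 1 (adjusted p = 0.0639 by edgeR), Dnm3os library 1 (0.115) or Dnm3os library 2 (0.0953). Lyz2, the macrophage lysozyme, was at 7807 ± 333 CPM in Dnm3os cells and 7013 ± 135 CPM in EV cells (SD, n = 2 each).

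Cd74 was the member that carried the pathway's reads, and it rose in Dnm3os cells. It had 3221 and 3577 counts in Dnm3os libraries 1 and 2, or 109 and 104 CPM, against 2347 and 2201 counts, or 59.0 and 62.1 CPM, in EV libraries 1 and 2. Both Dnm3os libraries lay above both EV libraries, and the gap between the groups was wider than the gap within either. The mean was 107 ± 3.72 CPM in Dnm3os cells and 60.6 ± 2.18 CPM in EV cells (SD, n = 2 each), a 1.76-fold rise (log2 fold change 0.82 ± 0.04, SE; adjusted p = 1.5e-12 in edgeR's two-sided quasi-likelihood test across 13172 genes). In these bulk libraries, more cells with Cd74 and more Cd74 RNA per cell cannot be told apart. Of the 858 genes called higher, 192 had a larger log2 fold change than Cd74 and 17 had a smaller p.

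Cd74 took 96.8% and 96.7% of the counts of all 8 members in the Dnm3os libraries, and 95.9% and 95.2% in the EV libraries. Of the 8 members 4 passed the filter on low counts (0.287 CPM in at least 2 libraries), namely Cd74, H2-DMa, H2-DMb1 and H2-DMb2. By edgeR 3 members rose, where 6.51% of all genes tested were called higher, and 0 fell, where 5.75% were called lower. Calls in either direction took 12.3% of the genes tested. H2-DMb1 and H2-DMb2 passed the filter only through the Dnm3os libraries, so they had to differ, and the count of members called is no measure of the pathway. Among members, lower values at an unadjusted p under 0.05 numbered 0 by edgeR, and DESeq2 called 0 lower. DESeq2 called 1 member higher, Cd74, where it called 5.82% of the genes in either direction.

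**Figure D1:**
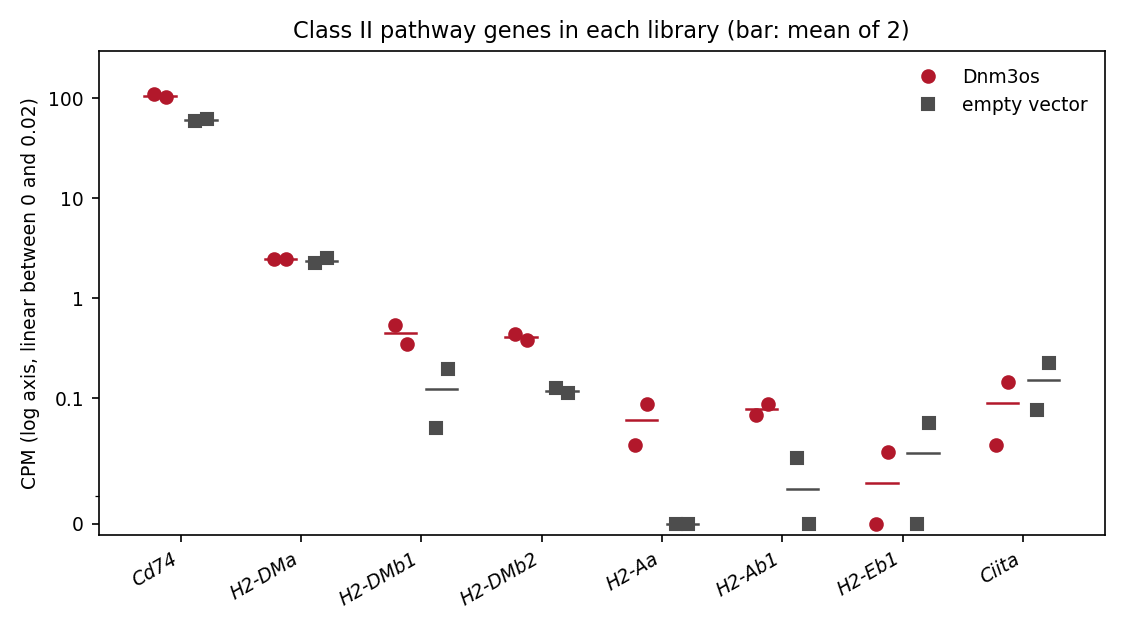
CPM of the 8 class II pathway genes in each library, on a log axis that is linear between 0 and 0.02, with Dnm3os libraries as circles, EV libraries as squares and a bar at the mean of 2. Cd74 lies near 107 CPM in Dnm3os cells and near 60.6 CPM in EV cells, H2-DMa lies between 2.24 and 2.54 CPM in all 4 libraries, and the other 6 genes stay below 1 CPM.

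The invariant chain has a longer form with an added exon, whose protein part is an inhibitor of cathepsins, and the deposited counts hold both forms. In the reference transcripts the longer form carries an insert of 192 bases. Its transcript had 153 and 180 counts more than the shorter one in the Dnm3os libraries, and 106 and 91 more in the EV libraries. These extra counts were 4.75% (95% Wilson interval 4.07 to 5.54%) and 5.03% (4.36 to 5.80%) of the longer transcript's counts in Dnm3os libraries 1 and 2. In EV libraries 1 and 2 they were 4.52% (3.75 to 5.43%) and 4.13% (3.38 to 5.05%). The insert is 192 of the longer transcript's 1410 bases, so these percentages are not the share of Cd74 RNA in the longer form. Their intervals, which cover counting error only, overlap between the groups, so a difference in this percentage was not detectable at this depth. As a level the extra counts were 5.20 and 5.25 CPM in Dnm3os cells, against 2.67 and 2.57 CPM in EV cells.

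**Figure D2:**
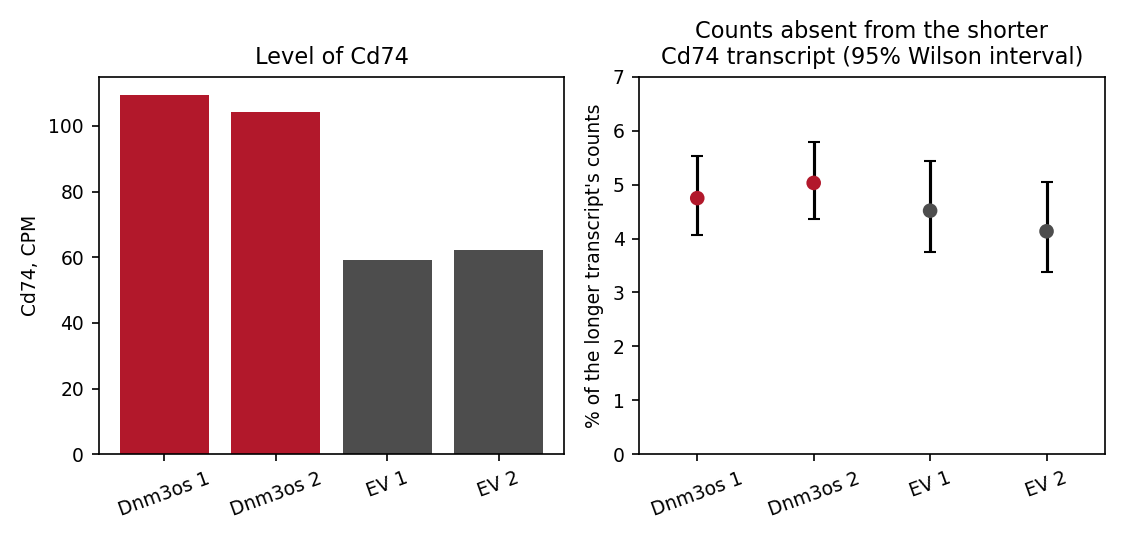
Left, CPM of Cd74 in each library (bars from 0). Right, the counts that the longer Cd74 transcript had beyond the shorter one as a percentage of the longer transcript's counts, with 95% Wilson intervals. The level separates the groups, while the 4 percentages lie between 4.13 and 5.03 with intervals that overlap.

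The class II chains that Cd74 escorts were close to undetected in both groups. H2-Aa, the I-A alpha chain, was read 1 and 3 times in the Dnm3os libraries, against 0 and 0 times in the EV libraries. The pooled Dnm3os level of 0.0628 CPM had an exact 95% counting interval of 0.0171 to 0.161 CPM, which includes the 0.0399 CPM that 0 counts allow in the EV group, so a difference was not detectable at this depth. H2-Ab1, the I-A beta chain, had 2 and 3 counts in Dnm3os cells, against 1 and 0 counts in EV cells. Its ratio of pooled CPM was 5.90, with an exact 95% counting interval of 0.660 to 279. H2-Eb1, the I-E beta chain, had 0 and 1 counts in Dnm3os cells and 0 and 2 in EV cells, too few for a fold. None of these 3 genes could be tested, and without the filter their adjusted p by edgeR was 0.356 for H2-Aa, 0.544 for H2-Ab1 and 0.920 for H2-Eb1. The chains of H2-DO, an inhibitor of H2-DM, are H2-Oa and H2-Ob, and both had 0 counts in all 4 libraries, which allows up to 0.0471 CPM over the Dnm3os group and 0.0399 CPM over the EV group. H2-Eb2 and Btnl2, neighbours in the same region, were also at 0 counts in every library. H2-Ea found no match under either of its names.

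Ciita stayed at the limit of detection. The transactivator had 1 and 5 counts in the Dnm3os libraries, against 3 and 8 in the EV libraries, and the groups overlapped. The ratio of pooled CPM was 0.644 with an exact 95% counting interval of 0.195 to 1.90, so neither a fall nor a rise was detectable at this depth. It was not tested, and without the filter on low counts its adjusted p was 0.776 by edgeR. All 5 Ciita transcripts in the files held these same 4 counts, so its alternative promoters, which start different first exons, could not be told apart.

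The peptide exchange factor was present at low levels. H2-DMa, its alpha chain, had 72 and 84 counts, or 2.45 and 2.45 CPM, in Dnm3os cells, against 89 and 90 counts, or 2.24 and 2.54 CPM, in EV cells. The groups overlapped, and H2-DMa was not called (log2 fold change 0.04 ± 0.18, SE, with a 95% interval from -0.30 to 0.38; adjusted p = 0.939 by edgeR). Without EV library 1 the value was -0.06. An equal level is not shown by this, but a change of the size seen for Cd74 (0.82) lies outside that interval.

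H2-DMb1, a beta chain of the exchange factor, had 16 and 12 counts in Dnm3os cells, against 2 and 7 counts in EV cells. H2-DMb2, the other beta chain, had 13 and 13 counts in Dnm3os cells, against 5 and 4 counts in EV cells. For both genes each Dnm3os library lay above each EV library, on few reads. Both passed the filter on low counts only through the Dnm3os libraries, so neither that order nor the p-values are independent support for a rise. The log2 fold change was 1.85 ± 0.60 (SE) for H2-DMb1 (adjusted p = 0.0448 by edgeR) and 1.74 ± 0.56 for H2-DMb2 (adjusted p = 0.0426 by edgeR). These calls were fragile, since DESeq2 made neither (adjusted p = 0.360 for H2-DMb1 and 0.394 for H2-DMb2). H2-DMb1 was lost without EV library 1 (1.14; adjusted p = 0.395 by edgeR), Dnm3os library 1 (1.52; 0.346) or Dnm3os library 2 (2.15; 0.129), was at 3.05 without EV library 2 (0.0192), and ran from 0.0192 to 0.395 over all its alternatives. H2-DMb2 was lost without EV library 1 (adjusted p = 0.185 by edgeR), EV library 2 (0.192), Dnm3os library 1 (0.236) or Dnm3os library 2 (0.173), in a range from 0.0409 to 0.394 over its alternatives.

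The DMb genes are close copies, so reads may be shared or split between them. Their reference transcripts, of 1404 and 1424 bases, were 93.9% identical over 1255 aligned bases. Of the 50-base windows of H2-DMb1, 27.2% occurred unchanged in H2-DMb2, and of the 100-base windows 13.7%. How the authors' counting treated such reads is not given in the sources used here. With the counts of the pair added together, which was chosen after seeing the data, the pair had a log2 fold change of 1.81 ± 0.41 (SE; adjusted p = 0.00402 by edgeR). The sum rests on the same counts as the separate genes, so this p-value is no separate support for a rise. The added pair was not called by DESeq2 (adjusted p = 0.0851), without EV library 1 (1.43; adjusted p = 0.0633 by edgeR) or without Dnm3os library 1 (1.59; 0.103).

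The promoter stretches of 4 members with low counts are shown because Ciita is known to act through X and Y boxes near the start of class II genes. Cd74, H2-Ab1 and Ciita had no entry in the RefSeq promoter table (GRCm38.p6), so nothing is shown here of their promoters. The other 5 of the 8 members had an entry. The stretch from 130 to 31 bases before that entry's start is printed 5′ to 3′ along the gene. That start lay 119 bases from the nearest start of the matching GENCODE transcript for H2-DMb1, 13 for H2-DMb2 and 0 for H2-Aa and H2-Eb1. Capitals mark matches, on either strand, to the Y box core ATTGG, to the letters GATGATG at the end of the X box (chosen after these sequences were seen) and to the cAMP response element TGACGTCA, and no matches overlap. The stretches lie at chr17:34287854-34287953 on the minus strand (H2-Aa) and on the plus strand at chr17:34305737-34305836 (H2-Eb1), chr17:34153061-34153160 (H2-DMb1) and chr17:34145119-34145218 (H2-DMb2).
H2-Aa: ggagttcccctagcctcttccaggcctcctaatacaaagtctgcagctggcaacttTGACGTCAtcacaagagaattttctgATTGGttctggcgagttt
H2-Eb1: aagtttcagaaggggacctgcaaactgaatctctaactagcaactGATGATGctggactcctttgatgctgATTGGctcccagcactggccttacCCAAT
H2-DMb1: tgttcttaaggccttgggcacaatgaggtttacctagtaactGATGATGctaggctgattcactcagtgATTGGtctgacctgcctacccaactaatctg
H2-DMb2: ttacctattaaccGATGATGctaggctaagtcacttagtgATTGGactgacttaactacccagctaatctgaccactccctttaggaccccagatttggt

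All 4 stretches held the Y box core on the plus strand, which 18.9% of the 32851 promoter entries held in the same window on either strand. The X box letters stood upstream of it in H2-Eb1, H2-DMb1 and H2-DMb2 and were not found in H2-Aa. Only those exact letters were searched, so this does not show that H2-Aa lacks an X box. Anywhere in that window, in whatever order, 1.32% of all entries held the X box letters. Those letters were chosen after these sequences were seen, so the matches in these genes are no test against that share. The X box letters and the Y box core began 27 bases apart in both DMb genes and 26 bases apart in H2-Eb1. H2-Aa held the cAMP response element upstream of its Y box core, and 0.886% of entries held that element anywhere in the window. Neither H2-DMa entry held any of these letters in that stretch. Such matches are a description of letters and not of bound sites.

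Per length, the order of the members was the same at its top in both groups. Cd74 had 75.8 ± 2.63 CPM per kilobase of transcript in Dnm3os cells and 42.9 ± 1.54 in EV cells (SD, n = 2 each). H2-DMa followed with 1.48 ± 0.00015 CPM per kilobase in Dnm3os cells and 1.44 ± 0.128 in EV cells. The level of Cd74 per kilobase was 52.6 and 50.1 times that of H2-DMa in the Dnm3os libraries, and 31.0 and 28.8 times in the EV libraries. H2-DMb1 (0.318 ± 0.0978) and H2-DMb2 (0.288 ± 0.0313) came next in Dnm3os cells and did not differ beyond their spread, nor did they in EV cells (0.0882 ± 0.0741 and 0.0838 ± 0.0064). H2-Ab1, H2-Aa, Ciita and H2-Eb1 lay below these at 0.0641 or less in Dnm3os cells, and at 0.0355 or less in EV cells. At 0 to 8 counts per library, no order among these 4 genes can be read.

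**Figure D3:**
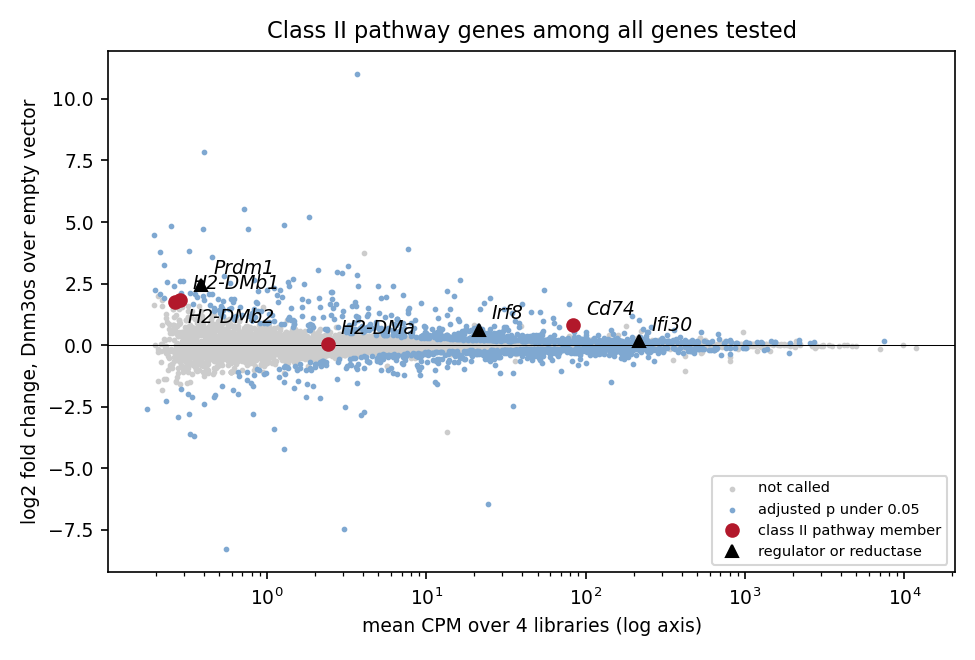
Log2 fold change (Dnm3os over EV) against mean CPM over the 4 libraries (log axis) for the 13172 genes tested, with called genes in blue, the 4 tested class II pathway genes as red circles and 3 pathway regulators or processing genes as black triangles. Cd74 stands at 0.82, H2-DMa at 0.04, and H2-DMb1 and H2-DMb2 lie among the lowest counts tested.

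The promoter complex on which Ciita docks gave no call. The list held the RFX subunits Rfx5, Rfxap and Rfxank, the NF-Y subunits Nfya, Nfyb and Nfyc, and Creb1, and all 7 were tested. For this and the lists below, 6.51% of all genes tested were called higher and 5.75% lower. A list this short can hold no call at those shares. By edgeR 0 rose and 0 fell (1 higher and 0 lower at an unadjusted p under 0.05), DESeq2 called 0 in each direction, and the median log2 fold change was -0.03, against 0.00061 over all genes tested. The highest CPM in this list were those of Nfya, with 99.0 ± 0.354 CPM in Dnm3os cells and 102 ± 3.94 CPM in EV cells, and Nfyc, with 56.4 ± 0.414 CPM in Dnm3os cells and 57.6 ± 0.0371 CPM in EV cells (SD, n = 2 each).

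Upstream of Ciita, the list held 12 genes with Ciita itself among them, and the other 11 could all be tested. Of these 2 rose, where 6.51% of all genes tested were called higher, 0 fell and 9 did not pass. Their median log2 fold change was 0.06. For the 0 lower, 1 was lower at an unadjusted p under 0.05 and DESeq2 called 0. Irf8, a transcription factor of the macrophage and dendritic cell lineages, had 783 and 872 counts in Dnm3os cells, against 655 and 613 counts in EV cells. Both Dnm3os libraries were higher on the CPM scale, with 26.0 ± 0.852 CPM in Dnm3os cells and 16.9 ± 0.582 CPM in EV cells (log2 fold change 0.62 ± 0.07; adjusted p = 5.0e-07 by edgeR). Prdm1, which encodes the repressor Blimp-1, known to shut Ciita off in plasma cells, had 11 and 32 counts in Dnm3os cells and 4 and 5 in EV cells. It rose by edgeR (2.45 ± 0.55; adjusted p = 0.00419), but not by DESeq2 (adjusted p = 0.0640) nor without Dnm3os library 2 (1.61; adjusted p = 0.279 by edgeR), where 1 regulator was called. Prdm1 too passed the filter only through the Dnm3os libraries.

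The receptor chains and kinases of the interferon gamma pathway held no call. Spi1, the myeloid master factor PU.1, had 289 ± 8.0 CPM in Dnm3os cells and 296 ± 10.8 CPM in EV cells (adjusted p = 0.663 by edgeR). Ifngr1, Ifngr2, Jak1, Jak2, Irf1, Usf1 and Socs1 did not pass either. Without EV library 1, Jak1 was called lower (-0.15; adjusted p = 0.0126 by edgeR).

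**Figure D4:**
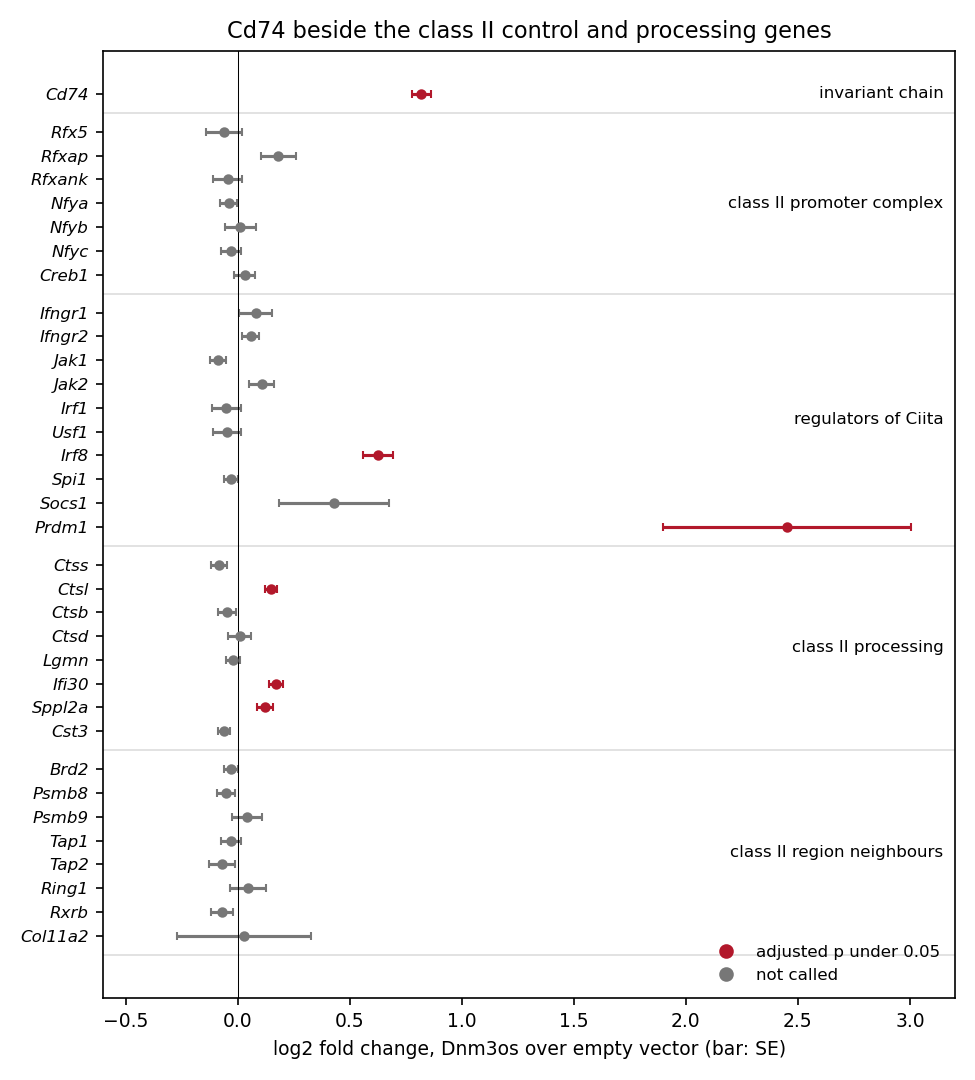
Log2 fold change with SE (Dnm3os over EV) of Cd74, the class II promoter complex, regulators of Ciita, processing genes and neighbours in the class II region, with genes at an adjusted p under 0.05 in red. Cd74 stands at 0.82, the 7 promoter complex genes and 8 neighbours hold no call, and Irf8, Prdm1, Ctsl, Ifi30 and Sppl2a are the other genes in red.

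Among genes that process antigen and the invariant chain, 3 rose slightly, where 6.51% of all genes tested were called higher. All 8 were tested, 5 missed the threshold and 0 fell, and the median was -0.01 (2 lower at an unadjusted p under 0.05, and DESeq2 called 2 higher and 0 lower). Ifi30, the lysosomal thiol reductase GILT, had 230 ± 1.65 CPM in Dnm3os cells and 204 ± 2.91 CPM in EV cells (0.17 ± 0.03; adjusted p = 0.000432 by edgeR). Ctsl, the protease that trims Cd74 in thymic epithelium, had 1332 ± 8.09 CPM in Dnm3os cells and 1203 ± 46.2 CPM in EV cells (0.15 ± 0.03; adjusted p = 0.000615 by edgeR). Sppl2a, the membrane protease that removes the last stub of Cd74, rose by 0.12 ± 0.03 (adjusted p = 0.0219 by edgeR). That call was lost by DESeq2 (0.199), with isoforms summed (0.0793) and without EV library 1 (0.337), Dnm3os library 1 (0.216) or Dnm3os library 2 (0.129).

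The cathepsins Ctsb and Ctsd, proteases of the endosome, had the highest CPM of the processing genes. Ctsb had 2007 ± 5.43 CPM in Dnm3os cells and 2074 ± 118 CPM in EV cells, and Ctsd had 1758 ± 10.0 CPM in Dnm3os cells and 1749 ± 113 CPM in EV cells. Neither was called with all libraries. Without EV library 1, Ctsb was lower (-0.11; adjusted p = 0.000909 by edgeR), as was Ctss, the main trimming protease of Cd74 in antigen-presenting cells (-0.15; 0.00534), which made 2 lower and 2 higher. Without EV library 2, Ctsd was higher (0.08; adjusted p = 0.0474 by edgeR).

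Cd74 at the cell surface also serves as a receptor for the cytokine Mif. Of 6 genes listed for that role 4 were tested, 3 rose and 0 fell, with a median of 0.17. Over all genes tested 6.51% were called higher and 5.75% lower. In this list 0 were lower at an unadjusted p under 0.05 by edgeR, and DESeq2 called 2 higher and 0 lower. Ddt, a homologue of Mif, had 32.1 ± 0.906 CPM in Dnm3os cells and 25.0 ± 0.133 CPM in EV cells (0.36 ± 0.06; adjusted p = 0.000155 by edgeR). Mif itself had 463 ± 0.973 CPM in Dnm3os cells and 455 ± 22.7 CPM in EV cells and was not called (adjusted p = 0.721 by edgeR). Cd44, the signalling partner of Cd74, had 414 ± 10.3 CPM in Dnm3os cells and 377 ± 11.3 CPM in EV cells (0.13 ± 0.03; adjusted p = 0.00592 by edgeR). Without EV library 2 (0.0538) or Dnm3os library 1 (0.149) it was not called, and 1 gene of the list was. The chemokine receptor Cxcr2 was called at adjusted p = 0.0469 by edgeR (0.21 ± 0.07), not by DESeq2 (0.360), and not without EV library 1 (0.0518), EV library 2 (0.295), Dnm3os library 1 (0.295) or Dnm3os library 2 (0.127).

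Genes of class II turnover and of costimulation gave 1 shared call, Cd83, a surface protein that protects class II from ubiquitination. It had 286 and 286 counts in Dnm3os cells, against 262 and 266 counts in EV cells, or 9.03 ± 0.981 CPM in Dnm3os cells and 7.05 ± 0.648 CPM in EV cells (0.36 ± 0.11; adjusted p = 0.0327 by edgeR). DESeq2 did not call it (0.312), nor did edgeR without EV library 1 (0.214), Dnm3os library 1 (0.338) or Dnm3os library 2 (0.0514), so that each list then had 0 higher. Of 4 turnover genes 3 were tested, 1 rose and 0 fell, with a median of 0.09 (1 lower at an unadjusted p under 0.05, and DESeq2 called 0). The ubiquitin ligase Marchf8 had 83.7 ± 2.42 CPM in Dnm3os cells and 78.5 ± 2.03 CPM in EV cells (adjusted p = 0.152 by edgeR), and Marchf1, the ligase known for class II in resting dendritic cells, had 6 and 7 counts in Dnm3os cells and 4 and 2 in EV cells. Ubxn1 had 126 ± 4.58 CPM in Dnm3os cells and 134 ± 4.44 CPM in EV cells (adjusted p = 0.0917 by edgeR) and was called lower without EV library 1 (-0.14; 0.0118) and with no filter on low counts (-0.10; 0.0302).

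Of 7 costimulation genes 4 were tested, 1 rose and 0 fell, with a median of 0.23 (0 lower at an unadjusted p under 0.05, and DESeq2 called 0). Cd80, a ligand of CD28, had 12.1 ± 1.86 CPM in Dnm3os cells and 11.1 ± 1.05 CPM in EV cells (adjusted p = 0.568 by edgeR). Cd274, the checkpoint ligand PD-L1, had 11.8 ± 0.314 CPM in Dnm3os cells and 12.6 ± 0.175 CPM in EV cells (adjusted p = 0.602 by edgeR). Cd86, the other CD28 ligand, named after its values were seen, had 1 and 5 counts in Dnm3os cells and 0 and 0 in EV cells. Cd86 was not tested, and without the filter on low counts its adjusted p was 0.188 by edgeR. A difference in Cd86 was thus not detectable at this depth. Of the other untested genes, Icosl had 8 and 5 counts in Dnm3os cells and 8 and 3 in EV cells. Pdcd1lg2 had 0 and 1 counts in Dnm3os cells and 1 and 0 in EV cells. Without EV library 2, Cd40 was also called (0.58; adjusted p = 0.0104 by edgeR), which made 2 higher.

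Genes that neighbour the class II chains on the chromosome showed no call, where 12.3% of all genes tested were called in either direction. All 8 of Brd2, Psmb8, Psmb9, Tap1, Tap2, Ring1, Rxrb and Col11a2 were tested, and by edgeR 0 rose and 0 fell, with 0 at an unadjusted p under 0.05 in either direction, 0 by DESeq2 and a median of -0.03. Brd2, a bromodomain protein, had 307 ± 5.65 CPM in Dnm3os cells and 313 ± 5.34 CPM in EV cells. Psmb8, an immunoproteasome subunit, had 88.1 ± 3.5 CPM in Dnm3os cells and 91.3 ± 2.75 CPM in EV cells. The I-A and I-E chains among them had 0 to 3 counts per library.

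Markers of other cell types summed to far less than the macrophage markers did. Of 9 dendritic cell markers, Flt3 and Cd209a had 0 counts in all libraries, Zbtb46 had 7 and 5 counts in Dnm3os cells and 9 and 2 in EV cells, and the summed level was 18.7 to 19.2 CPM in Dnm3os cells and 13.8 to 14.0 CPM in EV cells. Of the 3 that could be tested, Itgax, an integrin chain that macrophages also make, rose (0.79 ± 0.10; adjusted p = 3.1e-06 by edgeR). It had 12.3 ± 0.283 CPM in Dnm3os cells and 7.15 ± 0.694 CPM in EV cells, and carried the difference in the summed level. The other tested markers did not pass. Xcr1, a chemokine receptor, had 5.46 ± 0.516 CPM in Dnm3os cells and 5.61 ± 0.277 CPM in EV cells (adjusted p = 0.914 by edgeR), and Siglech, a lectin of plasmacytoid dendritic cells, had 0.833 ± 0.312 CPM in Dnm3os cells and 0.925 ± 0.150 CPM in EV cells (adjusted p = 0.812 by edgeR). All libraries came from the RAW 264.7 line, and any tie between these markers and the Cd74 difference was not tested. Of 7 B cell markers, Cd79b and Ms4a1 had 0 counts throughout, and the summed level was 3.43 to 3.85 CPM in Dnm3os cells and 3.75 to 3.82 CPM in EV cells, nearly all of it Fcer2a. The 6 T cell markers summed to 5.44 to 5.60 CPM in Dnm3os cells and 6.59 to 7.17 CPM in EV cells, nearly all of it the kinase Lck (adjusted p = 0.0513 by edgeR), which was called lower with total counts, with no filter, under a filter at 1 CPM, with a replicate block and with isoforms summed. The 5 fibroblast markers summed to 0 CPM in Dnm3os cells and 0.0282 to 0.0503 CPM in EV cells.

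The genes whose pattern lay nearest to Cd74 were Slc11a1, Phc2, Hk3, Calcrl and Mir6236, by Euclidean distance of centred log2 CPM over the 4 libraries among 3713 genes with 0.5 to 2 times its mean CPM. Slc11a1, the phagosomal metal transporter, lay at a distance of 0.116, with 82.8 and 82.0 CPM in Dnm3os cells and 44.2 and 43.7 CPM in EV cells. Phc2, a polycomb protein, lay at 0.119, with 83.4 and 85.9 CPM in Dnm3os cells and 50.3 and 50.9 CPM in EV cells. Hk3, a hexokinase, followed at 0.214, Calcrl, a receptor of the calcitonin family, at 0.217 and Mir6236 at 0.281. The log2 fold changes of these genes ran from 0.61 (Calcrl) to 1.10 (Mir6236), against 0.82 for Cd74. With 4 libraries in 2 groups, a small distance means a similar fold change and a similar spread, and no more.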

How the data were processed

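Poly(A) RNA of 4 libraries was measured. Per the submitters' processing notes, TopHat, Bowtie2, DESeq2 and the build mm9 were used, with no versions or roles. The sources used here do not give the counter, the annotation or the strand setting. Per the file headers, the authors deposited 35786 RefSeq transcripts with a raw read count and a normalized value each. That deposited normalized value is a signal, the raw count multiplied by a constant of its library (0.8653 to 1.1723), and entered no test.

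Transcripts were named from RefSeq (35499) and GENCODE (178) tables, and 109 kept their accession, except a ribosomal RNA precursor, which was left out. The transcript with the highest mean count stood for each gene. Counts were filtered with filterByExpr (minimum count 10), scaled with TMM and tested with edgeR 4.0.16 (glmQLFit, robust; glmQLFTest) in R 4.3.3, with Benjamini-Hochberg adjustment over 13172 genes, a threshold of 0.05, and Dnm3os over empty vector. SE was taken as the size of the log2 fold change divided by the root of the F statistic. The code was tested on simulated data. Only genes with higher mean counts than H2-DMb1, H2-DMb2 and Prdm1 were changed there, so calls at such low counts were not checked. Floors and counting intervals cover counting error only. Transcript lengths, windows and promoters come from GRCm38 tables, with no coordinates moved between builds.

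The members and lists were chosen with earlier results of these data known. Members were named whatever their values. Of each list, called genes (up to 6 by adjusted p) and the 2 tested genes with the highest CPM were named, and others where a count turned on them or as stated; some listed genes are not reported here. Alternatives were DESeq2's size factors, total counts, DESeq2 1.42.0, no filter, isoforms summed, a filter at 1 CPM (2 libraries), leaving out each library, a replicate block and, added later, the DMb genes summed. Where 1 library was left out, the fit assumes that the single one remaining in that group varies as the other group does.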

Additional observations from a re-analysis of the deposited data

How the results depend on the processing

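Cd74 kept its direction and call under all 11 alternatives tried, with a log2 fold change from 0.77 to 0.86 as libraries were left out in turn. With 2 libraries per group, 4 of the 8 members at 0 to 8 counts and the DMb genes at 2 to 16, depth limits what can be said of these 6. With DESeq2 in place of edgeR, 404 genes were higher and 362 lower, 1 member was higher, and the log2 fold changes of H2-DMb1 (1.86) and H2-DMb2 (1.78) were no longer called. A filter at 1 CPM in 2 libraries and isoforms summed also left 1 member higher. The first removed the DMb genes, and under the second H2-DMb1 (1.85) and H2-DMb2 (1.74) kept their size and lost the call. Summing isoforms may count a read more than once where transcripts share it, as the equal counts of the Ciita transcripts show. The DMb genes have a single transcript each, so their own counts were unchanged and the loss came from changed counts of other genes. H2-DMb2 (1.74) was also lost with no filter on low counts. With libraries left out in turn, genes higher ran from 465 to 808, genes lower from 396 to 786 and members higher from 1 to 2, while H2-DMb1 ran from 1.14 to 3.05, H2-DMb2 from 1.63 to 1.85, H2-DMa from -0.062 to 0.13 and the added DMb pair from 1.43 to 2.25. The added pair was at 1.82 by DESeq2, where its call was lost. The deviations of same-numbered libraries correlated at -0.06 over 13172 genes, which cannot say whether those libraries were prepared together. A replicate block gave 868 genes higher, 782 lower and 3 members higher, with Cd74 at 0.82, and changed no member's call.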
